A study of Mus musculus with 16 samples.

Results

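Expression of the epidermal growth factor (EGF) receptor ligands and their receptors was examined in mouse skin. The set was taken by gene symbol and holds 10 of the 23282 rows of the count tables. Of these genes, 7 encode ligands (Epgn, Ereg, Hbegf, Btc, Areg, Tgfa and Egf) and 3 encode receptors (Egfr, Erbb2 and Erbb3). Counts were high enough for a test in 9 of the 10, and Erbb3 was the exception.

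The ligands of this family are made as precursors anchored in the cell membrane, and proteases such as ADAM17 cut them to release the active factor. A ligand bound to EGFR lets the receptor pair with another EGFR or with ERBB2, a co-receptor that binds no ligand itself, and the pair signals through the Ras-MAP kinase and PI3 kinase pathways. In the epidermis this signalling drives keratinocytes to divide and migrate, and it also takes part in wound closure and in the timing of hair growth.

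Total RNA came from the skin of male C57BL/6N mice with the wild-type genotype (WT), bought at 3 weeks of age and kept for 1 week before the diets began. Each of the 4 groups had 4 mice, and each mouse gave 1 library. The Cont group ate normal chow. The LowAhR group ate for 12 weeks a diet low in ligands of the aryl hydrocarbon receptor (AhR), a transcription factor that senses such compounds, and lived on bedding free of them. LowAhR+AD mice ate the same diet and, from week 2 on, had 1% 2,4-dinitrochlorobenzene (DNCB) in acetone and olive oil painted on the back 2 times a week for 10 weeks. DNCB is a contact sensitizer that provokes a dermatitis used as a model of atopic dermatitis (AD). LowAhR+AD+BJ mice had the diet, DNCB and, from the same time on, 1 g/kg of Bojungikgi-tang (BJIKT), an herbal extract in water, by daily oral gavage. A sham gavage or a vehicle on the skin of the other mice is not given in the sources used here. Diet, bedding and DNCB were therefore shared by the groups with and without BJIKT. There was no group with DNCB on normal chow, so DNCB was compared only within the low-ligand diet, or together with it against Cont.

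Levels are given as CPM, the count of a gene scaled to a common library total after TMM correction. QuantSeq libraries carry about 1 fragment for each transcript, taken at its 3′ end, so CPM was set side by side between genes without a length correction. Totals were 7080508 to 8773876 counts in the 8 libraries without DNCB and 10614393 to 13467477 in the 8 with it, and the ranges did not overlap. Where a gene had no count, its level may still reach the value of 3 counts, 0.229 to 0.406 CPM by library, a limit that covers counting error only. LowAhR+AD replicate 1 stood apart from the rest. Of the genes expected at 20 to 40 counts there, 38.2% had no count, against at most 13.6% in any other library. In LowAhR+AD against LowAhR, the changes of Epgn, Hbegf, Areg, Btc, Ereg and Erbb2 are given with and without it. So are those of Erbb2 and Btc between the groups with DNCB. Each keratinocyte, fibroblast, adipocyte and muscle marker listed was detected in every group. In whole skin, fewer cells of a type and less RNA per cell cannot be told apart.

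Epgn, Ereg, Areg and Btc lie on chromosome 5 within 375.5 kb of the mm10 (GRCm38) assembly, and the first results below turn on them. Epgn was annotated at chr5:91027464-91035215, Ereg at chr5:91074622-91093646 and Areg at chr5:91139599-91148432, all on the plus strand, and Btc at chr5:91357261-91402994 on the minus strand. Egfr (chr11:16752203-16918158) and Erbb2 (chr11:98412470-98437716) are on the plus strand of chromosome 11, Tgfa (chr6:86195223-86275719) is on chromosome 6, Egf (chr3:129677565-129755316) on chromosome 3 and Erbb3 (chr10:128567523-128589652) on chromosome 10. RefSeq promoter windows of GRCm38.p6, from 250 bases before to 50 bases after the start, were matched for 7 of the 10 genes, with 2 windows for Egf. Ereg, Hbegf and Erbb3 had no entry. The bases before the annotated gene are shown for the 3 cluster genes with a window, because genes of the cluster moved in different directions. They run 5′ to 3′ on the strand of the gene, with matches to the searched motifs in capitals. The Epgn bases are chr5:91027267-91027463, the Areg bases chr5:91139349-91139598 and the Btc bases, on the minus strand, chr5:91402995-91403244.
Epgn: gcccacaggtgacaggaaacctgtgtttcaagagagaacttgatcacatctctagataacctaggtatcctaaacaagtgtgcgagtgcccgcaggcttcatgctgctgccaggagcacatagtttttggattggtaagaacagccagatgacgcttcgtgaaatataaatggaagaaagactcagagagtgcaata
Areg: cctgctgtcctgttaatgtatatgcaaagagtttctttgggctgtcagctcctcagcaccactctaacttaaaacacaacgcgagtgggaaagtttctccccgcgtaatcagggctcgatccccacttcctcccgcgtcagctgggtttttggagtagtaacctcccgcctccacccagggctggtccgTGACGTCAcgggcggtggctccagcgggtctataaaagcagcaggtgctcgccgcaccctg
Btc: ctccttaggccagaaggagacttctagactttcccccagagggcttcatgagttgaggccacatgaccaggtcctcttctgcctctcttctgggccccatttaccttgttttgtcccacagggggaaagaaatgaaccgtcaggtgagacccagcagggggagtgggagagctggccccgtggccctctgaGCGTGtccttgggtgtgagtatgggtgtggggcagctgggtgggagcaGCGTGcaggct

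The whole windows were searched on both strands for the AP-1 motif TGANTCA, the cyclic AMP response element TGACGTCA and the AhR core motif GCGTG, no 2 of which can share a whole match. Areg held TGACGTCA 61 bases before the start, a motif found in 1.79% of the 32851 promoter windows of the table. Btc held GCGTG at 59 and at 11 bases before the start, and this short motif was in 32.4% of all windows. Epgn held none of the 3 motifs, and TGANTCA, present in 7.81% of all windows, was in none of the matched members. GCGTG was also found in the windows of Tgfa, Erbb2 and Egf. These matches describe letters and were not tested for binding.

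Over all 16 libraries Epgn had the highest mean level, 94.95 CPM, followed by Ereg (36.6 CPM), Egfr (33.2 CPM), Hbegf (26.9 CPM), Btc (24.6 CPM), Erbb2 (22.9 CPM), Areg (8.49 CPM), Tgfa (1.96 CPM), Egf (0.801 CPM) and Erbb3 (0.204 CPM). This order hides a change of the leading ligand. In the Cont group Ereg was the most abundant ligand at 67.1 ± 13.8 CPM (SD, n = 4), then Btc at 42.8 ± 9.41 CPM, Hbegf at 9.14 ± 6.92 CPM, Epgn at 7.85 ± 6.01 CPM and Areg at 4.39 ± 2.85 CPM. Hbegf, Epgn and Areg overlapped between mice there. In the LowAhR+AD group Epgn led at 145 ± 118 CPM, then Hbegf at 51.0 ± 27.1 CPM, Ereg at 15.4 ± 6.78 CPM, Areg at 10.8 ± 3.50 CPM and Btc at 4.15 ± 2.86 CPM. Epgn and Hbegf overlapped between mice in that group, as did Ereg and Areg. Tgfa averaged 1.19 to 2.89 CPM over the 4 groups, from 0 to 68 counts a library. Egf averaged 0.464 to 1.25 CPM, from 0 to 23 counts a library.

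**Figure D1:**
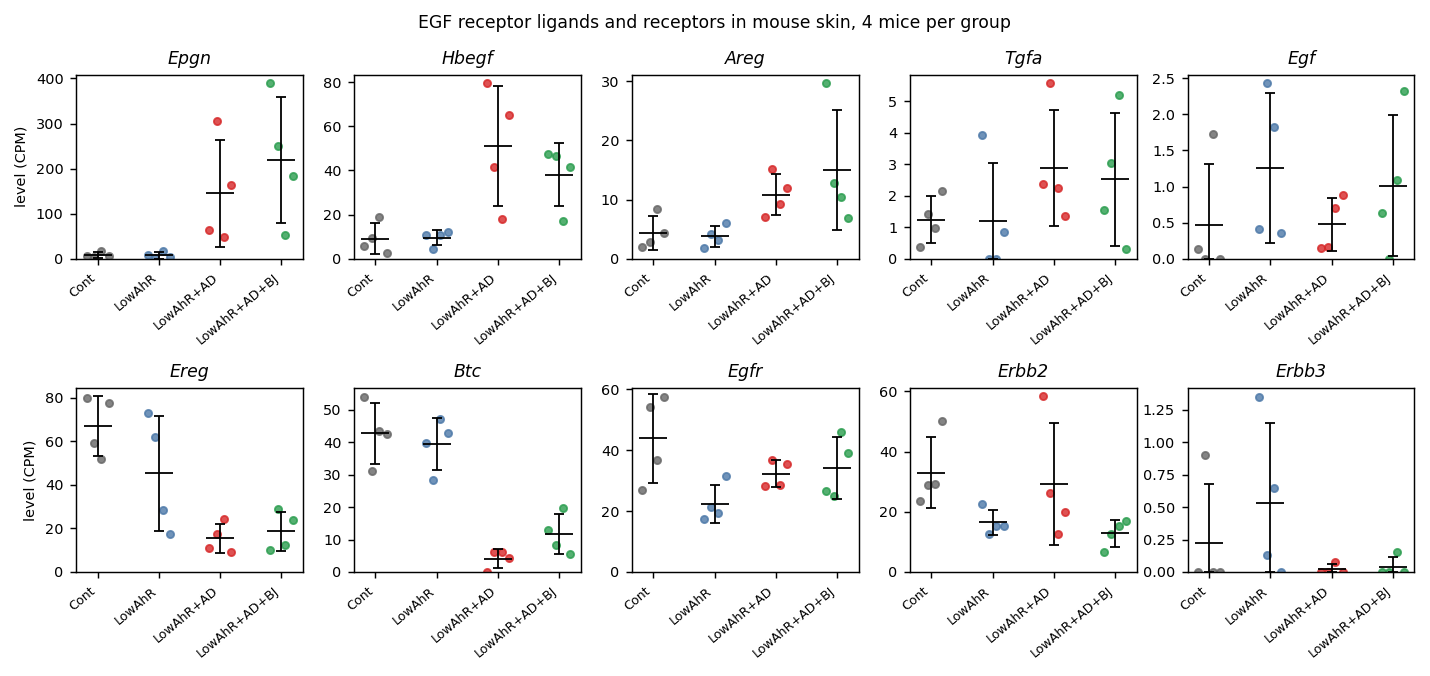
Level of each of the 10 genes in CPM (vertical axis, linear, a separate scale for each gene) in the 4 groups; each point is 1 mouse, the long bar is the group mean and the whiskers are 1 SD, cut at 0. In Epgn the 8 libraries with DNCB (48.1 to 389 CPM) lie above the 8 without it (1.28 to 17.7 CPM), and in Btc they lie below.

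DNCB on the low-ligand diet was compared with the diet alone. In LowAhR+AD against LowAhR, 4 of the 9 tested members passed an adjusted p of 0.05 (edgeR, Benjamini-Hochberg over all tested genes), where 12.6% of all 14854 tested genes did. Epgn and Hbegf rose, Ereg and Btc fell, and Areg, Tgfa, Egf, Egfr and Erbb2 did not pass. The 4 LowAhR+AD libraries did not overlap the 4 LowAhR libraries in Epgn, Hbegf, Areg and Btc, which was seen in 18.8% of all tested genes. With 4 libraries against 4, the smallest p of the two-sided exact permutation test is 0.0286.

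Epgn encodes epigen, a ligand that binds EGFR with low affinity and acts for long. It had 7.98, 1.28, 17.7 and 3.34 CPM in LowAhR replicates 1 to 4, and 63.9, 305, 48.1 and 163 CPM in LowAhR+AD replicates 1 to 4. The lowest mouse with DNCB was thus above the highest without it, although the LowAhR+AD mice differed among themselves by 6.35-fold. The log2 fold change of Epgn was 4.26 (standard error, SE, 0.80, edgeR adjusted p = 0.00300), or 19.2-fold. Without LowAhR+AD replicate 1 it was 4.51 (edgeR adjusted p = 0.00190).

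Hbegf encodes heparin-binding EGF-like growth factor, which keratinocytes release at wounds. Its levels were 10.8, 4.605, 10.8 and 11.9 CPM in LowAhR and 79.5, 41.5, 17.9 and 65.2 CPM in LowAhR+AD. The groups did not overlap, and replicate 3 was the lowest LowAhR+AD mouse in Hbegf as it was in Epgn. Hbegf rose by 2.42 on the log2 scale (SE 0.54, edgeR adjusted p = 0.00776), or 5.34-fold, and by 2.12 (adjusted p = 0.0173) without LowAhR+AD replicate 1.

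Areg encodes amphiregulin, a ligand made by keratinocytes and by immune cells of type 2 responses. It had 1.89, 4.09, 3.12 and 5.96 CPM in LowAhR and 7.09, 15.2, 9.17 and 11.9 CPM in LowAhR+AD. Every LowAhR+AD mouse was above every LowAhR mouse (exact permutation p = 0.0286). The fitted change of 1.52 (SE 0.55) gave an edgeR adjusted p of 0.0755. Without LowAhR+AD replicate 1 the change was 1.67 (edgeR adjusted p = 0.0634). Areg thus separated the groups without passing the test across all genes.

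Btc encodes betacellulin, a ligand of EGFR and ERBB4. Its levels were 39.9, 28.5, 47.2 and 42.8 CPM in LowAhR and 0.0763, 6.23, 6.06 and 4.25 CPM in LowAhR+AD. The value in replicate 1 was 1 count, in the library that stood apart. Btc fell by 3.25 on the log2 scale (SE 0.63, edgeR adjusted p = 0.00355), or 9.52-fold, and without that library by 2.84 (edgeR adjusted p = 2.59e-04).

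Ereg encodes epiregulin, a ligand of EGFR and ERBB4 with high activity on keratinocytes. It had 73.0, 62.0, 28.6 and 17.3 CPM in LowAhR and 11.2, 17.3, 24.2 and 9.07 CPM in LowAhR+AD. LowAhR replicate 4 reached down into the range of the LowAhR+AD mice, and the other 3 LowAhR mice were above that range. Ereg fell by 1.55 (SE 0.44, edgeR adjusted p = 0.0261), or 2.93-fold, but the exact permutation p was 0.0857. Without LowAhR+AD replicate 1 the change was -1.43 (edgeR adjusted p = 0.0561), and the call was also lost without LowAhR replicate 1 or 2 or LowAhR+AD replicate 2 or 4, with adjusted p-values up to 0.101. LowAhR replicate 4, the lowest of its group in Ereg, also had the highest hair follicle marker sum of the LowAhR group (10224 CPM, the others 98.0 to 3401 CPM), whose part in the level of Ereg was not tested.

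Tgfa, which encodes transforming growth factor alpha, and Egf, the founding ligand, had the fewest counts of the tested members. Tgfa had 3.92, 0, 0 and 0.835 CPM in LowAhR and 2.36, 5.58, 2.25 and 1.36 CPM in LowAhR+AD. The log2 fold change of Tgfa was 1.28 with a standard error of 1.26 (edgeR adjusted p = 0.546). Egf ranged from 0.358 to 2.43 CPM in LowAhR and from 0.153 to 0.883 CPM in LowAhR+AD, with 2 to 19 counts a library, and its log2 fold change was -1.38 (SE 1.48, edgeR adjusted p = 0.586). At this depth a change of either gene was not detectable unless large.

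Among the receptors, Egfr had 17.6, 21.2, 19.4 and 31.5 CPM in LowAhR and 28.3, 36.7, 28.5 and 35.5 CPM in LowAhR+AD. The groups overlapped through LowAhR replicate 4 only. The change of Egfr was 0.52 on the log2 scale (SE 0.28, 95% confidence interval -0.074 to 1.12, edgeR adjusted p = 0.239). Erbb2 had 22.6, 12.7, 15.3 and 15.4 CPM in LowAhR and 58.6, 26.2, 12.6 and 19.98 CPM in LowAhR+AD, a change of 0.83 (SE 0.41, edgeR adjusted p = 0.198). The highest Erbb2 value was again in LowAhR+AD replicate 1, and without it the change was 0.25 (edgeR adjusted p = 0.721). The last 500 bases of Erbb2 overlap exons of Mien1, and whether reads were counted by strand is not given in the sources used here, so reads of the pair may not be separable. Mien1 had 63.0 ± 10.98 CPM in LowAhR and 95.8 ± 17.6 CPM in LowAhR+AD. Erbb3, the receptor with the weakest kinase of the family, had 26 counts over all libraries and was at 0 in 10 of them.

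**Figure D2:**
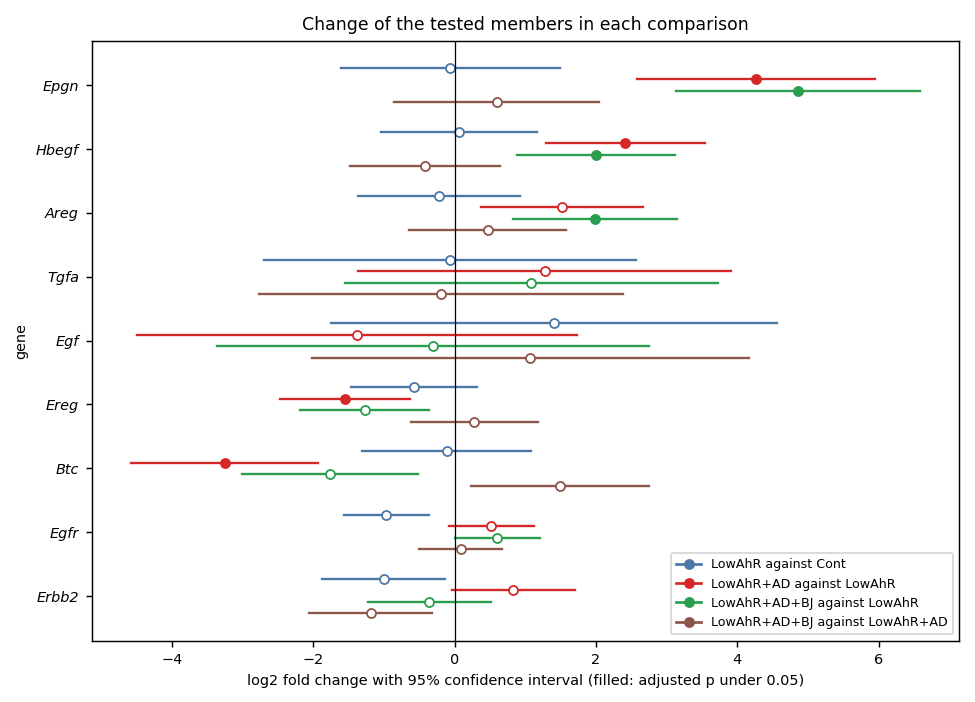
Fitted log2 fold change (horizontal axis) with its 95% confidence interval for the 9 tested genes in 4 comparisons, which share groups and so are not independent; filled points passed an adjusted p of 0.05. In LowAhR+AD against LowAhR the intervals of Epgn, Hbegf and Areg lie above 0 and those of Ereg and Btc below 0, with Areg not filled. No point is filled for LowAhR against Cont or for LowAhR+AD+BJ against LowAhR+AD.

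The diet, its bedding and DNCB together were set against normal chow in LowAhR+AD against Cont, a comparison that shares the LowAhR+AD libraries with the one above. Of the 9 tested members 4 passed, where 21.8% of all tested genes did. Epgn was at 5.39, 3.62, 16.8 and 5.62 CPM in Cont, and its log2 fold change was 4.21 (edgeR adjusted p = 0.00145). Hbegf was at 5.90, 9.17, 18.7 and 2.75 CPM in Cont and changed by 2.48 (edgeR adjusted p = 0.00356), with 1 Cont mouse above the lowest LowAhR+AD mouse. Btc, at 54.1, 31.1, 43.4 and 42.6 CPM in Cont, fell by 3.36 (edgeR adjusted p = 0.00139). Ereg, at 79.9, 59.0, 51.8 and 77.5 CPM in Cont, fell by 2.12 (edgeR adjusted p = 0.00271), here without overlap, which 24.7% of all tested genes showed. Areg, at 1.92, 2.84, 8.38 and 4.43 CPM in Cont, had a change of 1.297 (edgeR adjusted p = 0.0969). With 1 library left out at a time it was 1.06 to 1.83 (edgeR adjusted p = 0.0405 to 0.218). Only the run without Cont replicate 3 (1.83) passed. Without LowAhR+AD replicate 1 the number that passed was again 4, where 12.6% of all tested genes were called higher and 10.6% lower.

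The diet without DNCB was examined in LowAhR against Cont, which also differed in bedding, so diet and bedding cannot be told apart. None of the 9 members passed, and 0% of all tested genes did (edgeR). At an unadjusted p under 0.05 there were 2 members, the receptors Egfr and Erbb2, where 13.7% of all tested genes were under it. Egfr had 26.8, 54.4, 36.9 and 57.4 CPM in Cont and 43.9 ± 14.5 CPM on average, against 22.4 ± 6.23 CPM in LowAhR. Of the 4 LowAhR mice 3 were below every Cont mouse, and the log2 fold change was -0.97 (SE 0.29, edgeR adjusted p = 0.123). With DESeq2 in place of edgeR the same change had an adjusted p of 0.0486, the only member called there, where DESeq2 called 3.31% of all tested genes.

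Erbb2 had 23.5, 29.1, 29.2 and 50.2 CPM in Cont, all above the 4 LowAhR mice, though by a narrow margin in the nearest case (23.5 against 22.6 CPM). No overlap was seen in 11.3% of all tested genes. The log2 fold change of Erbb2 was -1.001 (SE 0.41, edgeR adjusted p = 0.278), and DESeq2 did not call it. The summed level of the 3 receptors was 77.1 ± 24.7 CPM in Cont, 39.4 ± 5.93 CPM in LowAhR, 61.6 ± 19.1 CPM in LowAhR+AD and 47.1 ± 13.8 CPM in LowAhR+AD+BJ. Epgn, Hbegf, Areg and Btc had log2 fold changes between -0.22 and 0.061, each smaller than its standard error, and Ereg had -0.57 (SE 0.42, edgeR adjusted p = 0.615). The change of Egf was 1.41 (SE 1.504) and that of Tgfa -0.061 (SE 1.25), both from few counts. Whether ligands and receptors differed in their response to diet and bedding was not tested.

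Mice that had BJIKT in addition to DNCB were first compared with the diet alone, against the same LowAhR libraries as above. In LowAhR+AD+BJ against LowAhR, 3 of the 9 members passed, where 6.77% of all tested genes did, and all 3 were higher. The groups did not overlap in 4 members (Epgn, Hbegf, Areg and Btc), where 17.1% of all tested genes did not. Epgn had 389, 250.4, 52.8 and 185 CPM after BJIKT, a log2 fold change of 4.86 (SE 0.82, edgeR adjusted p = 0.00295). Hbegf had 47.2, 46.6, 17.0 and 41.5 CPM, a change of 2.00 (SE 0.53, adjusted p = 0.0312), and Areg had 29.7, 12.8, 10.4 and 6.95 CPM, a change of 1.99 (SE 0.55, adjusted p = 0.0379). Replicate 3 was the lowest of this group in both Epgn and Hbegf, and replicate 1 was the highest in Areg. The calls of Hbegf and Areg were less firm than that of Epgn. Both were lost with limma voom (adjusted p = 0.0978 for Hbegf and 0.116 for Areg). Leaving out 1 of the 8 libraries ended the call of Hbegf in 6 cases and that of Areg in 5, and without LowAhR+AD+BJ replicate 1 the change of Areg was 1.41 (edgeR adjusted p = 0.172).

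Btc had 13.0, 8.44, 19.7 and 5.44 CPM after BJIKT, all below the LowAhR mice, with a log2 fold change of -1.76 (SE 0.59, edgeR adjusted p = 0.0807). Ereg had 10.03, 28.7, 12.6 and 23.7 CPM and a change of -1.27 (SE 0.43, edgeR adjusted p = 0.0846). Neither ligand passed in the 16-library edgeR fit, and both passed with DESeq2 (adjusted p = 0.0208 and 0.0333), which called 11.3% of all tested genes. Btc also passed with limma voom (0.0243), with edgeR on the 8 libraries compared (0.0147) and without LowAhR+AD+BJ replicate 3 (0.0495), and Ereg with at least 10 counts required in every library (0.0491) and without LowAhR replicate 4 (0.0311). Egfr had 26.6, 24.8, 46.1 and 39.1 CPM and a change of 0.61 (edgeR adjusted p = 0.217). Erbb2 had 6.75, 12.5, 15.4 and 16.9 CPM and a change of -0.35 (edgeR adjusted p = 0.684).

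The effect of BJIKT itself was addressed by LowAhR+AD+BJ against LowAhR+AD, groups with the same diet and DNCB. None of the members passed, nor did any other gene with edgeR (0% of all tested genes, lowest adjusted p 0.193), and 9.46% of all tested genes had an unadjusted p under 0.05. With limma voom 0 genes and with DESeq2 17 genes passed, none of them a member. The groups overlapped in all 9 tested members. They were separated in 5.08% of all tested genes, so none among 9 is near that share. The members with an unadjusted p under 0.05 were Erbb2 and Btc. Erbb2 averaged 12.9 ± 4.49 CPM with BJIKT and 29.3 ± 20.3 CPM without it, and its fitted change was -1.18 on the log2 scale (95% confidence interval -2.06 to -0.31, edgeR adjusted p = 0.498). Btc averaged 11.6 ± 6.19 CPM with BJIKT and 4.15 ± 2.86 CPM without it. In Btc, 3 of 4 LowAhR+AD+BJ mice were above every LowAhR+AD mouse (log2 fold change 1.49, interval 0.23 to 2.75, edgeR adjusted p = 0.5004).

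Both of these differences were smaller without LowAhR+AD replicate 1, which had the highest Erbb2 and the lowest Btc of its group. Without that library the log2 fold changes were -0.61 for Erbb2 and 1.07 for Btc (adjusted p = 0.989 and 0.898 from edgeR). The SE of Erbb2 was 0.42 with that library and 0.35 without it, and that of Btc 0.60 and 0.36. The change of Btc thus shrank, but not relative to its SE. The intervals of the other main members left room for changes in either direction. They ran from -0.86 to 2.05 for Epgn, from -1.48 to 0.64 for Hbegf, from -0.64 to 1.58 for Areg, from -0.62 to 1.18 for Ereg and from -0.51 to 0.68 for Egfr. The test therefore does not show that these genes were at the same level in both groups. Only for Egfr was the interval within 1 log2 unit of 0.

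The makeup of the ligand transcripts was described by the share of each ligand in the summed CPM of all 7. Ereg and Btc together made up most of the sum in every mouse without DNCB. Ereg took 50.8 ± 9.60% of it in Cont and 40.1 ± 19.4% in LowAhR, and Btc took 32.0 ± 3.29% and 37.9 ± 11.7%. With DNCB the share of Epgn was 56.3 ± 18.01% and, with BJIKT added, 66.2 ± 15.1%, after 5.75 ± 4.06% in Cont and 6.82 ± 6.52% in LowAhR. The lowest Epgn share with DNCB was 38.9% and the highest without it 16.2%. Hbegf took 25.2 ± 16.6% in LowAhR+AD, with 48.4% in replicate 1, and 13.2 ± 2.60% in LowAhR+AD+BJ. Areg stayed between 3.29% and 5.33% on average in all groups. These shares were not tested, since they restate the levels of the ligands above.

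**Figure D3:**
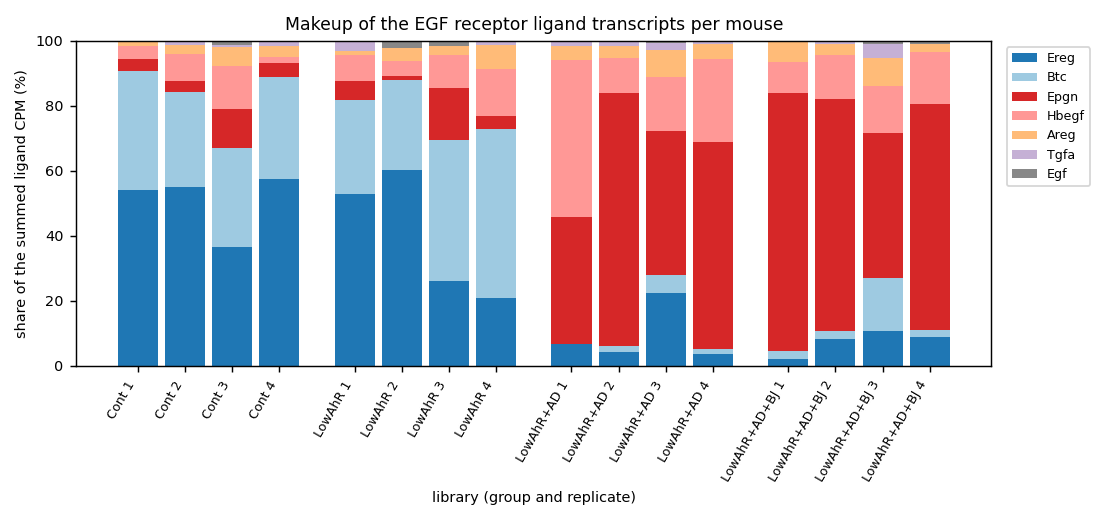
Share of each of the 7 ligands in the summed ligand CPM (vertical axis, percent) for each of the 16 mice, grouped by treatment. Ereg and Btc (blue) fill most of each bar in the Cont and LowAhR groups, and Epgn and Hbegf (red) fill most of each bar in both groups with DNCB.

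The sum itself was 133 ± 17.96 CPM in Cont, 108 ± 22.9 CPM in LowAhR, 229.9 ± 124 CPM in LowAhR+AD and 306 ± 156 CPM in LowAhR+AD+BJ. The lowest mice of both groups with DNCB (108 and 119 CPM) lay within the range of the mice without it. Ratios between genes of the cluster moved further than the sum. There were 0.0206 to 0.618 Epgn counts per Ereg count in the 8 mice without DNCB and 1.99 to 38.8 in the 8 with it. Per Btc count there were 0.0448 to 0.386 Epgn counts without DNCB and 2.68 or more with it. Such ratios need no scaling between libraries, and the 2 sets of mice did not overlap in either of them. Epgn and Btc each separated these sets on their own, so the ratios restate the levels above. They were not tested.

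In the chromosome 5 cluster, Epgn and Ereg start 47.2 kb apart on the same strand and changed in opposite directions in LowAhR+AD against LowAhR. Areg, which starts 112 kb from Epgn, and Btc, 376 kb away, had changes of 1.52 and -3.25. Of 8 other tested genes within 500.0 kb of the cluster, 3 rose and 0 fell, where 6.42% and 6.21% of all tested genes did. These were the neutrophil chemokines Cxcl5 and Cxcl2 on one side and Parm1 on the other. Cxcl2 rose by 4.47 (SE 1.13, edgeR adjusted p = 0.0157) and Parm1 by 1.78 (SE 0.46, adjusted p = 0.0185). Cxcl5 had no count in any LowAhR library and averaged 58.4 CPM in LowAhR+AD, at least 152-fold above the mean level that 3 counts give. The summed level of the neutrophil markers found in the tables (4 of 5) was 2.31 to 13.7 CPM in the mice without DNCB and 11.5 to 76.4 CPM in those with it, and its part in the chemokine levels was not tested. Ppbp, Pf4, Cxcl1, Mthfd2l and Rassf6 did not pass. In LowAhR+AD+BJ against LowAhR, Cxcl5, Cxcl2 and Cxcl1 rose among the same 8, where 3.64% of all tested genes did.

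**Figure D4:**
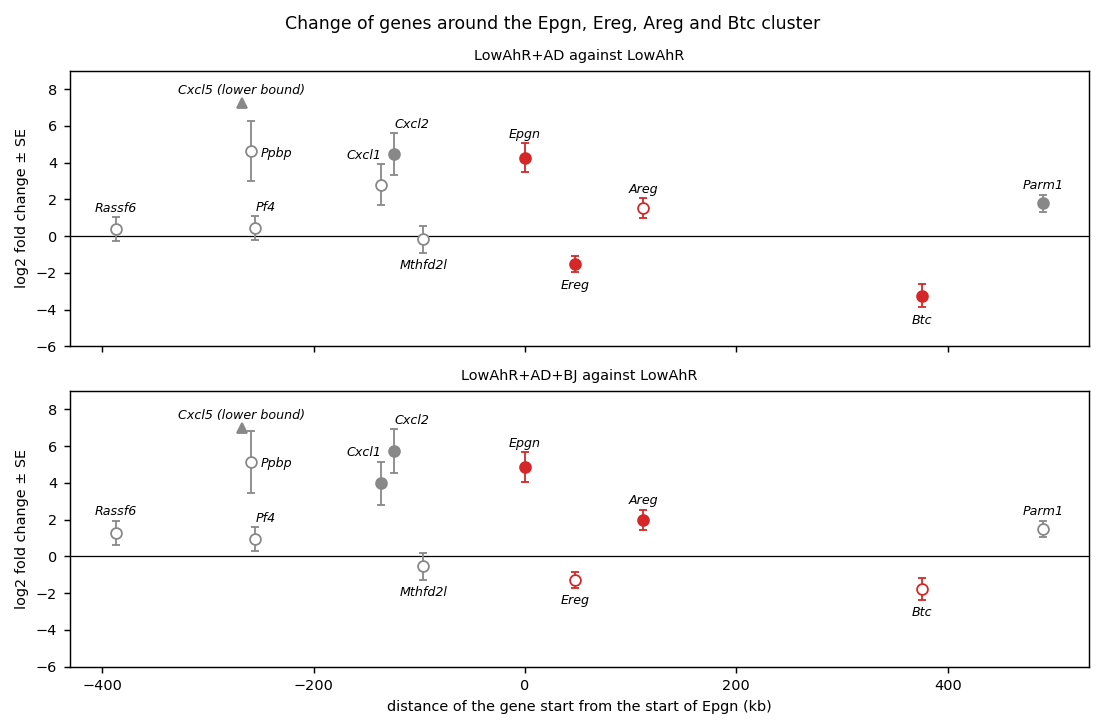
Fitted log2 fold change with its standard error (vertical axis) against the distance of each gene start from the start of Epgn in kb (horizontal axis); members are red, other tested genes grey, filled points passed an adjusted p of 0.05, and the triangle is the lower bound of Cxcl5. Epgn lies above 0 between chemokine genes and Ereg, which lies below 0, as does Btc.

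By a fixed rule, the genes with the level pattern most like that of the leading ligand and of the leading receptor were looked up among 9381 genes with a mean of at least 10 CPM. For Epgn they were Tnc (Pearson r = 0.95 of log2 CPM over 16 libraries), Krt16 (r = 0.95) and Chil3 (r = 0.94). Tnc encodes the matrix protein tenascin C, Krt16 a keratin of activated keratinocytes and Chil3 a chitinase-like protein of macrophages. Krt16 was at 4.35 to 37.0 CPM in the 8 mice without DNCB and 322 to 1672 CPM in the 8 with it, so these libraries form 2 separate sets and r mostly restates that split. For Egfr they were Mknk1 (r = 0.83), Dcaf10 (r = 0.77) and Rabggta (r = 0.76). The values are a description and carry no test.

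The wider pathway was read from 5 lists with 59 genes outside the members, of which 55 were tested. In LowAhR+AD against LowAhR, 9 of the 55 were higher and 0 lower, against 6.42% and 6.21% of all tested genes. The response list holds genes that rise when EGFR and the MAP kinase pathway are active, although many other signals induce them too. Of its 14 genes 7 rose, and the median change of the list was 0.85 where that of all tested genes was 0.038. Fosl1, which encodes the AP-1 subunit FRA-1, was at 0.580 ± 0.816 CPM in LowAhR and 12.6 ± 6.37 CPM in LowAhR+AD, a log2 fold change of 4.39 (SE 1.13, edgeR adjusted p = 0.0177). The ETS factors Etv4 and Etv5 rose by 2.53 and 1.58 (adjusted p = 0.00430 and 0.0490), and Egr3, Ccnd1, Egr2 and Phlda1 by 1.26, 1.16, 1.02 and 1.02. LowAhR+AD replicate 1, the library that stood apart, was the highest of its group in each of these 7 genes except Phlda1. Etv5 was at 59.9 CPM there and at 11.2 to 14.1 CPM in the other 3 libraries, and Etv4 at 58.6 CPM and 15.4 to 22.0 CPM. Without that library, an alternative chosen after the data were seen, 4 of the 14 response genes passed, where 5.34% of all tested genes were called higher. Fosl1 (4.17), Etv4 (1.93), Phlda1 (1.003) and Ccnd1 (0.86) kept their calls, and Etv5, Egr3 and Egr2 had changes of 0.66, 0.81 and 0.57 (edgeR adjusted p = 0.319, 0.0984 and 0.194).

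The other 7 response genes did not pass. Of the signal transducers, 1 of 21 passed, Hras, which rose by 1.35 (SE 0.33, edgeR adjusted p = 0.0128). Hras was also highest in LowAhR+AD replicate 1 (434 CPM, the others 155 to 269 CPM), and without that library it rose by 1.013 (edgeR adjusted p = 0.0329). None of the 12 tested feedback inhibitors and none of the 5 genes of ligand shedding passed. Without LowAhR+AD replicate 1, Dusp6 and Akt1 rose (1.14 and 0.78) and Pik3r1 fell by 0.87 (edgeR adjusted p = 0.0158, 0.0377 and 0.00940), and of the 55 genes 8 were higher and 1 lower. The inhibitors Errfi1 and Lrig1 changed by 0.11 and -0.23, and the sheddase gene Adam17 by -0.17, with adjusted p-values of 0.853, 0.593 and 0.643.

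Of the rest of the receptor family, Erbb4 and the neuregulin Nrg3 had no count in any library. The neuregulin Nrg1 had at most 1 count in each LowAhR library and none in Cont, and 1.84 ± 1.21 CPM in LowAhR+AD and 3.02 ± 2.26 CPM in LowAhR+AD+BJ. These means were at least 4.78-fold and 7.86-fold above the level of 3 counts, and both comparisons with LowAhR passed (adjusted p = 0.0261 and 0.0247 from edgeR). Nrg2 (0.878 to 1.80 CPM on average) and Nrg4 (4.13 to 10.1 CPM) passed in no comparison.

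In LowAhR+AD against Cont, 10 of the 55 genes were higher and 6 lower, where 12.3% and 9.47% of all tested genes were. The lower ones were the feedback inhibitors Spry1 and Spry2 (log2 fold changes -1.65 and -1.26), the immediate early gene Fos (-1.99), and Pik3r1, Sos1 and Pik3ca (-1.51, -0.96 and -0.66) of the signalling chain. Akt1 and Hras were among the higher ones (1.25 and 2.00). Without LowAhR+AD replicate 1, 9 genes were higher and 9 lower, where 12.6% and 10.6% of all tested genes were. In LowAhR+AD+BJ against LowAhR, 4 genes were higher (Nrg1, Dusp6, Ier3 and Nras) and 1 lower (Pik3r1), where 3.64% and 3.12% of all tested genes were. Dusp6, a phosphatase that switches off ERK, rose by 1.08 and Nras by 0.78 (adjusted p = 0.0459 and 0.0206 from edgeR). Of the 14 response genes 1 passed there, Ier3, with a change of 0.85. None of the 55 genes passed in LowAhR against Cont or between both groups with DNCB.

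**Figure D5:**
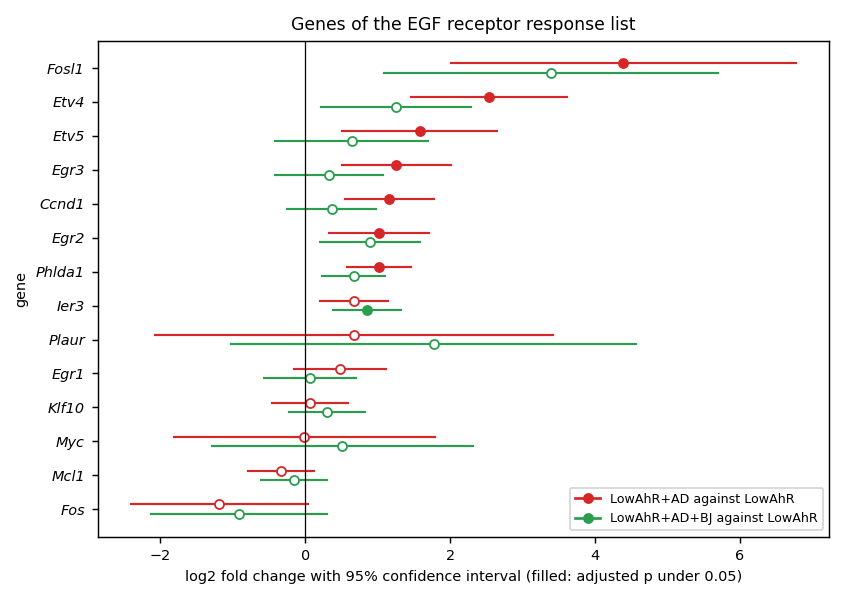
Fitted log2 fold change (horizontal axis) with its 95% confidence interval for the 14 genes of the response list in both groups with DNCB, each against the same LowAhR libraries; filled points passed an adjusted p of 0.05. In LowAhR+AD, 7 points are filled, from Fosl1 at 4.39 to Phlda1 at 1.02, and in LowAhR+AD+BJ 1 is filled, Ier3.

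Cell type markers moved together with these genes. The summed level of 5 activated keratinocyte markers was 535 to 1737 CPM in the 8 mice without DNCB and 11811 to 33415 CPM in the 8 with it, and that of 6 basal keratinocyte markers was 2532 to 3508 CPM and 4900 to 10514 CPM. Every marker of both lists was detected in each group, and of the hair follicle list 1 gene was at 0 in Cont. Within both groups with DNCB, replicate 3 had the lowest activated keratinocyte sum (11811 and 12898 CPM) and the lowest Epgn and Hbegf. Of the basal list 3 genes were called higher and 1 lower in LowAhR+AD against LowAhR, and 1 higher and 1 lower in LowAhR+AD+BJ against LowAhR. Of the 6 suprabasal markers none passed in either (median log2 fold changes -0.64 and -0.048). The sum of 14 hair follicle markers was 12.6 to 965 CPM in Cont, 98.0 to 10224 CPM in LowAhR and 6303 to 25620 CPM with DNCB. The fibroblast sum was 27673 to 69501 CPM without DNCB and 3896 to 22584 CPM with it. In LowAhR+AD against LowAhR, all 8 skeletal muscle markers (median log2 fold change -2.74) and 6 of 7 adipocyte markers (median -2.26) were called lower. The sums did not overlap between these groups, at 7764 to 19288 and 388 to 3235 CPM for muscle and 7221 to 11962 and 309 to 3732 CPM for adipocytes. Of the 8 sebaceous gland and the 6 fibroblast markers 2 each were called lower and none higher. The part of these shifts in the levels of Epgn, Hbegf, Ereg and Btc was not tested. With the hair follicle, muscle and fat markers left out of the library sizes, the same 4 members passed in LowAhR+AD against LowAhR. TMM factors were computed again on the new totals, so that run could hardly differ and does not bear on the marker shifts.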

How the data were processed

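Skin RNA of 16 mice in 4 groups of 4 was sequenced from QuantSeq 3′ libraries, 1 library a mouse. The deposited values are whole-number read counts per gene, made by the authors before any normalization. The submitters' processing notes name Bowtie2, bedtools and the mm10 build, and their versions and roles, the counting strand and the handling of reads with several matches are not given in the sources used here. Every row named a gene, and 35 symbols stood in several rows, none of them a member.

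Groups came from the sample labels. Genes were kept by filterByExpr of edgeR (minimum count 10, minimum total 15), which left 14854 of 23282. All 16 libraries entered a single edgeR 4.0.16 quasi-likelihood fit in R 4.3.3, with TMM factors of 0.892 to 1.16, and 5 group contrasts were tested with Benjamini-Hochberg adjustment over all tested genes. Single genes were also compared by two-sided exact permutation tests on log2 CPM with a prior count of 2. The edgeR p-values set the difference between groups against the spread between these mice, estimated over all 16 libraries. The exact p-values rank the observed split of the mice among all possible splits. Totals ranged from 7080508 to 13467477 counts. The scripts were tested on simulated data.

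Alternatives were RLE factors, DESeq2 1.42.0, voom of limma 3.58.1, other filters, the 8 libraries compared alone, a replicate block, library sizes without hair follicle, muscle and fat markers, thinned counts, a prior count of 0.5 and leaving out each library. The pathway lists without LowAhR+AD replicate 1 were an alternative added after seeing the data. Named genes were the members, the genes of 5 pathway lists called in any comparison (at most 25), Erbb4, the Nrg genes, Adam17, Errfi1 and Lrig1 whatever their values, apart from a gene that is not reported here, and the 3 genes with the highest Pearson r to the leading ligand and to the leading receptor. The neighbours of the chromosome 5 cluster and Mien1 fall outside this rule and were named after their values were seen. The members and lists were chosen with earlier results of these data known.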

Additional observations from a re-analysis of the deposited data

Results flagged for a closer look

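In 38 sets of 4 libraries (1 gene in 1 group), 4 had a library whose gap to the nearest other, divided by the whole range, exceeded Dixon's 95% critical value for 4 samples. Chance gives about 1 in 20 such sets where values are normally distributed. That rate does not hold for Egf and Erbb3 in Cont, which had libraries with no count. Hbegf in LowAhR replicate 2 was low, at 4.605 CPM, with the next at 10.8 CPM. Epgn in Cont replicate 3 was high, at 16.8 CPM, with the next at 5.62 CPM. Egf in the same library was at 1.73 CPM, with the next at 0.128 CPM. Erbb3 in Cont replicate 2 was at 0.904 CPM, from 7 counts, with none in the other Cont libraries.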

How the results depend on the processing

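In LowAhR+AD against LowAhR, the calls of Epgn and Hbegf held under each alternative run and without each library (log2 fold changes without 1 library 3.61 to 5.13 and 2.12 to 2.70). Btc held likewise (-3.50 to -2.84), except that requiring 10 counts in every library left it untested. The call of Ereg was lost with the 8 libraries alone (adjusted p = 0.0821 from edgeR) and with the replicate block (0.0530), and Areg was called with DESeq2 (0.0415). The number of members called in LowAhR against Cont was 1 with DESeq2 in place of 0. In LowAhR+AD+BJ against LowAhR it was 5 with DESeq2, 1 with the replicate block and 1 to 4 when 1 library was left out, in place of 3. It was 1 there without LowAhR replicate 1, 2 or 3 or LowAhR+AD+BJ replicate 1 or 2. Without LowAhR+AD replicate 1, the response genes called higher numbered 4 in place of 7 against LowAhR and 4 in place of 6 against Cont, and those called lower against Cont 2 in place of 1. The pathway genes called lower numbered 1 in place of 0 against LowAhR. This alternative was chosen after seeing the data. The cause was not tested.

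Small changes turned in sign when 1 library was left out, none of them called. In LowAhR against Cont the ranges were -0.53 to 0.30 for Areg, -0.24 to 0.68 for Hbegf, -2.08 to 0.35 for Tgfa, -0.24 to 0.018 for Btc and -0.91 to 0.63 for Epgn. In LowAhR+AD against Cont they were -0.44 to 3.17 for Egf and -0.76 to 0.11 for Erbb2, and in LowAhR+AD+BJ against LowAhR -1.09 to 0.23 for Egf. Between the groups with DNCB they were -0.11 to 0.70 for Areg, -0.015 to 0.58 for Ereg, -0.82 to 0.34 for Tgfa and -0.10 to 0.20 for Egfr.

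Some counts of called genes over the whole table moved by more than 1.5 times. LowAhR against Cont gave 0 genes, but 491 with DESeq2, 250 with the 8 libraries alone, 35 with at least 10 counts in every library, 159 without LowAhR replicate 2, and 1 or 2 without LowAhR replicate 3 or Cont replicate 1 or 3. LowAhR+AD against LowAhR gave 1876, but 765 with the 8 libraries alone and 1128 to 1244 without LowAhR replicate 1, 2 or 3. LowAhR+AD+BJ against LowAhR gave 1005, but 1676 with DESeq2, 519 to 606 without LowAhR replicate 1, 2 or 3 and 414 to 602 without LowAhR+AD+BJ replicate 1, 2 or 4. LowAhR+AD+BJ against LowAhR+AD gave 0, but 17 with DESeq2 and 1 with thinned counts or without LowAhR+AD replicate 2 or 3. The main fit did not pair the libraries by replicate number, and the sample labels name no such pairing. Deviations of same-numbered libraries correlated at -0.055 to 0.167, with 3 of 24 pairs over 0.1. Of the 16 libraries, 7 correlated best with a library of their own number. These values do not decide whether the numbers mark a pairing. Depth limits Tgfa, Egf and Erbb3, which had few counts.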
